A study of Mus musculus with 21 samples.

Results

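The lungs of mice 3 days after left pneumonectomy, an operation that takes out the whole left lung, were compared with lungs of mice that had not been operated on. The comparison took in the 3 arrays labelled day 3 after the operation and the 3 labelled day 0, which is 6 of the 21 arrays of the series. At day 3 the mice had undergone left pneumonectomy, and at day 0 both lungs were in place and no operation had been done. All mice were male C57BL/6, a widely used inbred strain, and the sources used here give no ages. Both days held 1 array each of the medial lobe, the cardiac lobe and the whole right lung, so n = 3 arrays per day with each region represented once. The remaining arrays covered days 7, 14, 28 and 56 of the same course and a sham operation at day 56, with the same 3 regions each, and entered the fit to estimate the spread. The labels do not say whether arrays of different regions came from the same animals or from pools, and the whole right lung contains the tissue of the lobes. With a term for region in the fit, mean differences between regions are removed. The p-values measure the scatter of single arrays left after condition and region, over all 21 arrays. Part of it may be technical, and how much lies between animals is not known. The title of the series names phases of lost differentiation and of renewed development during lung growth after pneumonectomy, and day 3 is its earliest time after the operation.

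After a lung is removed, the remaining lobes take up its share of air and blood flow and enlarge, a response called compensatory lung growth. In rodents, cells of the alveolar wall, the endothelium and the pleural surface divide during the first days, and monocytes and macrophages enter the tissue. Growth of new septa also needs collagen, elastin and their cross-linking enzymes, proteases that remodel the matrix, and growth factors such as FGF, VEGF, IGF and ligands of the EGF receptor. In tissue RNA, fewer cells of a type and less RNA per cell cannot be told apart, and this holds for every result given here.

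Values are log2 array levels after the authors' RMA normalization, so a difference of 1 is 2-fold, and levels of different genes are not compared with each other. Per-array values are given in the order medial lobe, cardiac lobe, whole right lung. Genes were called with limma at a Benjamini-Hochberg adjusted p under 0.05 over 19938 genes, and "rose" and "fell" refer to day 3 relative to day 0 for genes that passed. Errors after a difference are standard errors (SE) of the fit. Any 2 of the 6 arrays correlated at 0.983 to 0.995 over all probe sets. The lung markers Sftpc and Scgb1a1 were high at both days and did not pass the test. Sftpc, the surfactant protein of alveolar type II cells, stood at 13.45, 13.27 and 13.18 at day 3, against 13.29, 13.40 and 13.43 at day 0. Scgb1a1, the club cell secretoglobin, stood at 13.25, 13.15 and 13.25 at day 3, against 12.83, 13.26 and 13.39 at day 0. Myh6, a myosin of heart muscle, was lower at 6.88, 7.01 and 6.22 at day 3 and 7.67, 7.60 and 7.14 at day 0, with no overlap but an adjusted p of 0.142. The day 7 cardiac lobe and day 56 whole lung arrays are called here the arrays that stand apart. Each had the narrowest interquartile range and the highest mean of 61 small RNA genes within its region. The day 7 cardiac lobe had 3.55 and 8.26, against 3.73 and 7.61 in the next cardiac array (day 56). The day 56 whole lung had 3.39 and 9.93, against 3.51 and 9.10 in the next whole lung array (day 14). The 2 arrays are in neither group here but add to the estimated spread, and without them 2827 genes were called in place of 1336.

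At day 3, 1336 of 19938 genes differed from day 0 (6.7%), of which 792 rose (3.97%) and 544 fell (2.73%). With each array centred on its median over all probe sets, which moves the median gene by -0.044 in place of 0.013, 606 genes rose and 815 fell. The split between rises and falls thus depends on the scaling. The large differences were mostly rises, since 217 called genes were at least 2-fold higher at day 3 and 23 were at least 2-fold lower. Of the called genes, 1333 had 1 sign in all 3 regions and 1201 had day 3 arrays that did not overlap those of day 0, against 5485 non-overlapping genes among all those tested (27.5%). The called rises had a median difference of 0.47 in the medial lobe, 0.82 in the cardiac lobe and 0.77 in the whole lung. The called falls had medians of -0.44, -0.53 and -0.57 in the same regions. The count of called genes depended on single arrays. It was 664 without the day 3 whole lung, 749 without the day 3 cardiac lobe, 739 without the day 0 cardiac lobe and 723 without the day 0 whole lung.

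The largest rise was that of Saa3, a serum amyloid A gene made locally by macrophages and epithelium in acute inflammation. Saa3 stood at 11.79, 11.92 and 12.49 at day 3, against 6.95, 6.44 and 6.92 at day 0, a difference of 5.30 ± 0.56 (39.4-fold, limma adjusted p = 4.51e-05). All 3 day 3 arrays lay far above all day 0 arrays. Prg4, which encodes the lubricant lubricin and is found on joint and mesothelial surfaces, stood at 10.50, 10.53 and 10.55 at day 3, against 5.44, 5.46 and 6.65 at day 0 (4.68 ± 0.44, 25.6-fold, limma adjusted p = 1.98e-05). The day 3 arrays were nearly equal, while the day 0 whole lung was the highest of its day. Timp1, an inhibitor of matrix metalloproteinases, stood at 10.78, 11.50 and 11.58 at day 3, against 7.59, 7.80 and 7.93 at day 0 (3.52 ± 0.23, 11.4-fold, limma adjusted p = 1.25e-06).

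Several of the largest rises differed in size between the regions and were largest in the whole lung. Arg1, the arginase of alternatively activated macrophages, stood at 9.71, 8.82 and 11.58 at day 3, against 5.52, 5.75 and 5.79 at day 0 (4.34 ± 0.82, 20.3-fold, limma adjusted p = 0.00412). Serpinb2, the plasminogen activator inhibitor PAI-2 of activated macrophages, stood at 8.80, 8.28 and 10.62 at day 3, against 4.99, 5.22 and 5.16 at day 0 (17.2-fold, limma adjusted p = 0.000658). In both genes the whole lung exceeded both lobes at day 3, while the day 0 arrays lay close together. The 5 called genes with the widest range of the difference across regions were Cxcl2, Acod1, Clec4e, Ccl3 and Arg1, and in each of them the whole lung was highest at day 3. Cxcl2, a neutrophil chemokine, stood at 6.31, 5.34 and 9.62 at day 3, against 4.41, 4.33 and 4.45 at day 0 (limma adjusted p = 0.0144, and 0.0783 without the day 0 whole lung). Acod1, which makes itaconate in activated macrophages, stood at 6.80, 6.05 and 9.96 at day 3, against 5.47, 5.41 and 5.41 at day 0 (limma adjusted p = 0.0419). The call of Acod1 ended without the day 3 whole lung or any 1 of the 3 day 0 arrays, with an adjusted p of up to 0.171. Ccl3, a chemokine of activated macrophages, stood at 7.98, 8.08 and 10.43 at day 3, against 6.80, 7.02 and 6.46 at day 0, and its call ended without the day 3 whole lung or the cardiac lobe or whole lung of day 0 (limma adjusted p up to 0.146). Each region had 1 array per day, and whether the regions differed in response was not tested.

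**Figure D1:**
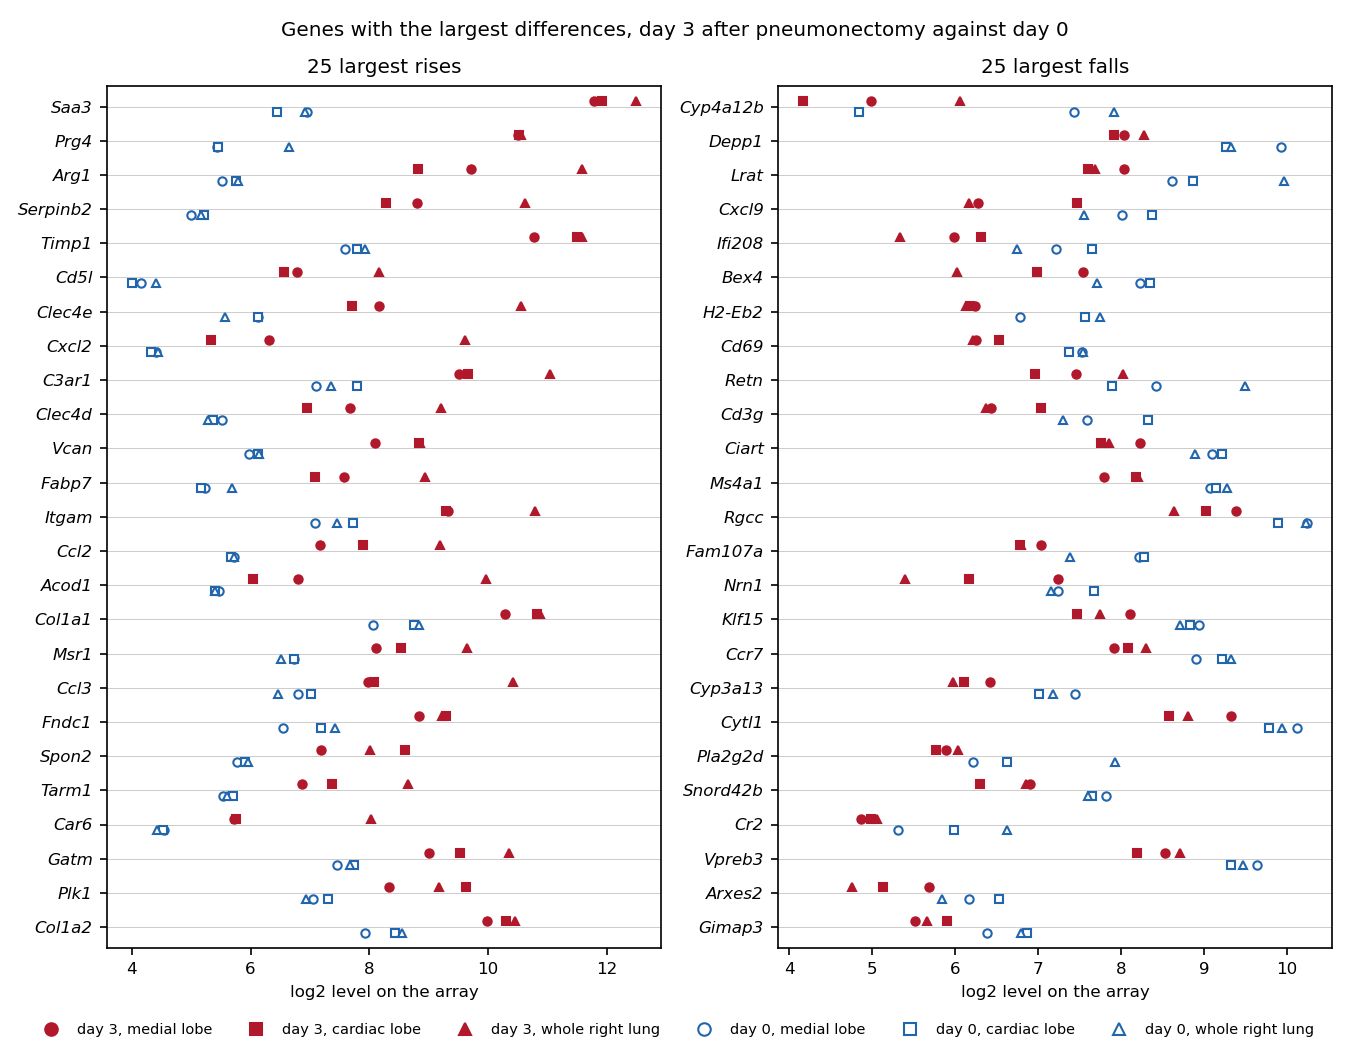
The 25 largest rises and the 25 largest falls at day 3 against day 0, by array, on a log2 axis; filled points are day 3, open points are day 0, and marker shape gives the region. Saa3 and Prg4 show the widest gaps, and the falls are smaller than the rises throughout.

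Further genes among the largest rises had varied roles. Cd5l, a scavenger-like protein secreted by macrophages, rose 7.92-fold, and Fabp7, a fatty acid binding protein, rose 5.68-fold. The call of Fabp7 ended without the day 3 whole lung or the day 0 cardiac lobe, with an adjusted p of up to 0.108. Spon2, the secreted matrix protein mindin, stood at 7.18, 8.61 and 8.02 at day 3, against 5.77, 5.91 and 5.95 at day 0 (4.17-fold, limma adjusted p = 0.00157). Gatm, the first enzyme of creatine synthesis, rose 4.01-fold and Car6, a secreted carbonic anhydrase, rose 4.03-fold. In Car6 the whole lung stood at 8.03 at day 3, against 5.73 and 5.76 in the lobes of that day and 4.43 to 4.55 at day 0.

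The largest falls were smaller. Bex4, a gene of the brain-expressed X-linked family, stood at 7.54, 6.99 and 6.02 at day 3, against 8.23, 8.35 and 7.71 at day 0 (-1.25 ± 0.15, 0.421-fold, limma adjusted p = 0.000142). Cyp4a12b, a fatty acid hydroxylase with near-identical relatives, was the largest called fall at -1.66 ± 0.40 and stood at 4.98, 4.17 and 6.06 at day 3, against 7.43, 4.84 and 7.92 at day 0. Its groups overlapped, and its call ended without the medial lobe or whole lung of either day (adjusted p up to 0.0835). Rgcc, a regulator of cell cycle progression induced by complement, stood at 9.39, 9.03 and 8.64 at day 3, against 10.24, 9.89 and 10.23 at day 0 (0.467-fold, limma adjusted p = 0.00112). Klf15, a transcription factor of metabolic and glucocorticoid programmes, stood at 8.11, 7.47 and 7.74 at day 3, against 8.94, 8.83 and 8.71 at day 0 (0.481-fold, limma adjusted p = 2.4e-05). Cytl1, a small secreted protein first found in CD34+ cells, fell to 8.91 on average at day 3, against 9.95 at day 0 (0.487-fold). Bex4, Rgcc, Klf15 and Cytl1 passed whichever 1 of the 6 arrays was left out.

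Genes of cell division rose together. All 29 measured genes of mitosis were called higher at day 3 (100%), with a median difference of 1.46 against 0.013 over all genes, and in all 29 the day 3 arrays did not overlap those of day 0. The median difference was 0.71 in the medial lobe, 1.91 in the cardiac lobe and 1.66 in the whole lung. The promoters of 4 of these genes are shown because they carry the letters of 2 motifs known from cell cycle genes, the CCAAT box, bound by NF-Y, and TTTGAA, a core of the cell cycle homology region. Plk1 lies at chr7:122159185-122159484 on the plus strand, Prc1 at chr7:80294201-80294500 on the plus strand, Mki67 at chr7:135716330-135716629 on the minus strand and Cdk1 at chr10:69352863-69353162 on the minus strand. The windows run from 250 bases before to 50 after the annotated start, from RefSeq on GRCm38.p6, are written 5′ to 3′ on the strand of the gene, and carry CCAAT (or ATTGG, its reverse complement) and TTTGAA in capitals. Where the table holds more than 1 window of a gene, as the 2 of Prc1, the first is shown and a match in any window was counted.
Plk1: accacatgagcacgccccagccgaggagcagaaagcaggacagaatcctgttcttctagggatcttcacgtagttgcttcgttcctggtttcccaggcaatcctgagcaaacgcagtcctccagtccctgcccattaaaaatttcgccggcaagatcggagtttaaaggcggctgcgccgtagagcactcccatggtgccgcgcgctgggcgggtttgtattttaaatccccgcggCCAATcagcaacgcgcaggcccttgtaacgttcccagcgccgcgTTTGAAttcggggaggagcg
Prc1: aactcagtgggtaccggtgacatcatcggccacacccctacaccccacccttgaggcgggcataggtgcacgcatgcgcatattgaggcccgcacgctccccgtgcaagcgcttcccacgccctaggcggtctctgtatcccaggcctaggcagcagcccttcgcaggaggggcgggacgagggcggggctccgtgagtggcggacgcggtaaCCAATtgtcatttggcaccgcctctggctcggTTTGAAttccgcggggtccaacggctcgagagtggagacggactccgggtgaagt
Mki67: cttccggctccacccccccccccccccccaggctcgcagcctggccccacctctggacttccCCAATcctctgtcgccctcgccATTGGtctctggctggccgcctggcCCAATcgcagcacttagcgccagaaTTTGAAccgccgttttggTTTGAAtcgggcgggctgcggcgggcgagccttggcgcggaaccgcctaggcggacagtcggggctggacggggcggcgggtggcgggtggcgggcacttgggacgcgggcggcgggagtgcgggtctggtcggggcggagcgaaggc
Cdk1: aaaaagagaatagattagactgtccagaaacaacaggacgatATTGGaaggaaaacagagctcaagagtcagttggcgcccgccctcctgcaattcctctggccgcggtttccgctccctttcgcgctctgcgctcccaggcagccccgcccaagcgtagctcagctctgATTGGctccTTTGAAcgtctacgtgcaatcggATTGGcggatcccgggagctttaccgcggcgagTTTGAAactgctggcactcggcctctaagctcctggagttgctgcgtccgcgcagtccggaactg
Both strands of each window were searched for CCAAT and TTTGAA, and neither motif contains the other. Of 23 mitosis genes with a promoter in the table, 16 held CCAAT (69.6%), 17 held TTTGAA (73.9%) and 14 held both (60.9%). Of 15614 measured genes with a promoter in the table, 41.7% held CCAAT, 17.3% held TTTGAA and 6.89% held both. Among 23 genes of DNA replication, 14 held CCAAT (60.9%) and 3 held TTTGAA (13%). CCAAT was also held by 12 of 14 clock promoters (85.7%). These matches describe the letters of the windows and are no evidence of binding.

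Plk1, the polo-like kinase that drives mitotic entry and spindle assembly, stood at 8.34, 9.63 and 9.18 at day 3, against 7.05, 7.31 and 6.93 at day 0 (1.95 ± 0.20, 3.87-fold, limma adjusted p = 3.9e-05). Ccna2, the cyclin of S phase and G2, stood at 8.65, 10.01 and 9.47 at day 3, against 7.46, 7.73 and 7.17 at day 0 (3.80-fold, limma adjusted p = 0.000288). Cdk1, the kinase that cyclins A and B activate, stood at 8.66, 10.11 and 9.53 at day 3, against 7.73, 7.91 and 7.46 at day 0 (3.32-fold, limma adjusted p = 0.00137). In each of these genes the cardiac lobe was highest and the medial lobe lowest of the day 3 arrays, and the medial lobe still exceeded every day 0 array. Mki67, the proliferation antigen Ki-67, stood at 8.31, 9.59 and 9.11 at day 3, against 7.27, 7.45 and 7.06 at day 0 (3.35-fold). Prc1, a microtubule bundler of the central spindle, rose 3.64-fold, Kif20a, a kinesin of cytokinesis, rose 3.40-fold, and Ccnb2, a B-type cyclin, rose 3.18-fold. The 29 calls became 25 without the day 3 or the day 0 cardiac lobe and 26 without the whole lung of either day, and 9 with the medial and cardiac lobes alone.

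Most DNA replication genes rose too. Of 27 measured, 19 rose (70.4%) and none fell, with a median of 0.60 in the fit, 0.35 in the medial lobe, 0.98 in the cardiac lobe and 0.62 in the whole lung. Rrm2, the regulated subunit of ribonucleotide reductase, stood at 7.97, 9.25 and 8.36 at day 3, against 7.23, 7.39 and 6.88 at day 0 (2.56-fold, limma adjusted p = 0.000687). Tk1, the S phase thymidine kinase, rose 2.22-fold, Uhrf1, which links replication to DNA methylation, rose 2.09-fold, and Mcm5, a subunit of the replicative helicase, rose 1.91-fold. The count of 19 depended on single arrays, becoming 10 without the day 3 cardiac lobe and 11 without the day 0 cardiac lobe. It was 13 without the whole lung of either day, 14 without the day 0 medial lobe and 22 without the day 3 medial lobe. With the medial and cardiac lobes alone it was 1. Of 20 genes of G1 entry and E2F control, 6 rose (30%) and none fell. Foxm1, a transcription factor of G2 and M genes, stood at 6.39, 7.83 and 7.23 at day 3, against 5.53, 5.81 and 5.57 at day 0 (2.85-fold, limma adjusted p = 0.000417). E2f8 and E2f7, repressive E2F factors, rose 2.24-fold and 1.79-fold, Ccne1, the cyclin of the G1 to S transition, rose 1.55-fold, and Skp2, a subunit of the ubiquitin ligase that degrades p27, rose 1.43-fold. Ccnd1, a D-type cyclin, stood at 10.96, 11.15 and 10.96 at day 3, against 11.15, 11.09 and 11.05 at day 0, with no call (limma adjusted p = 0.846). None of 17 cell cycle inhibitors and p53 targets passed in limma, with 2 lower at an unadjusted p under 0.05, and none of 19 ribosome biogenesis genes passed by either measure.

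**Figure D2:**
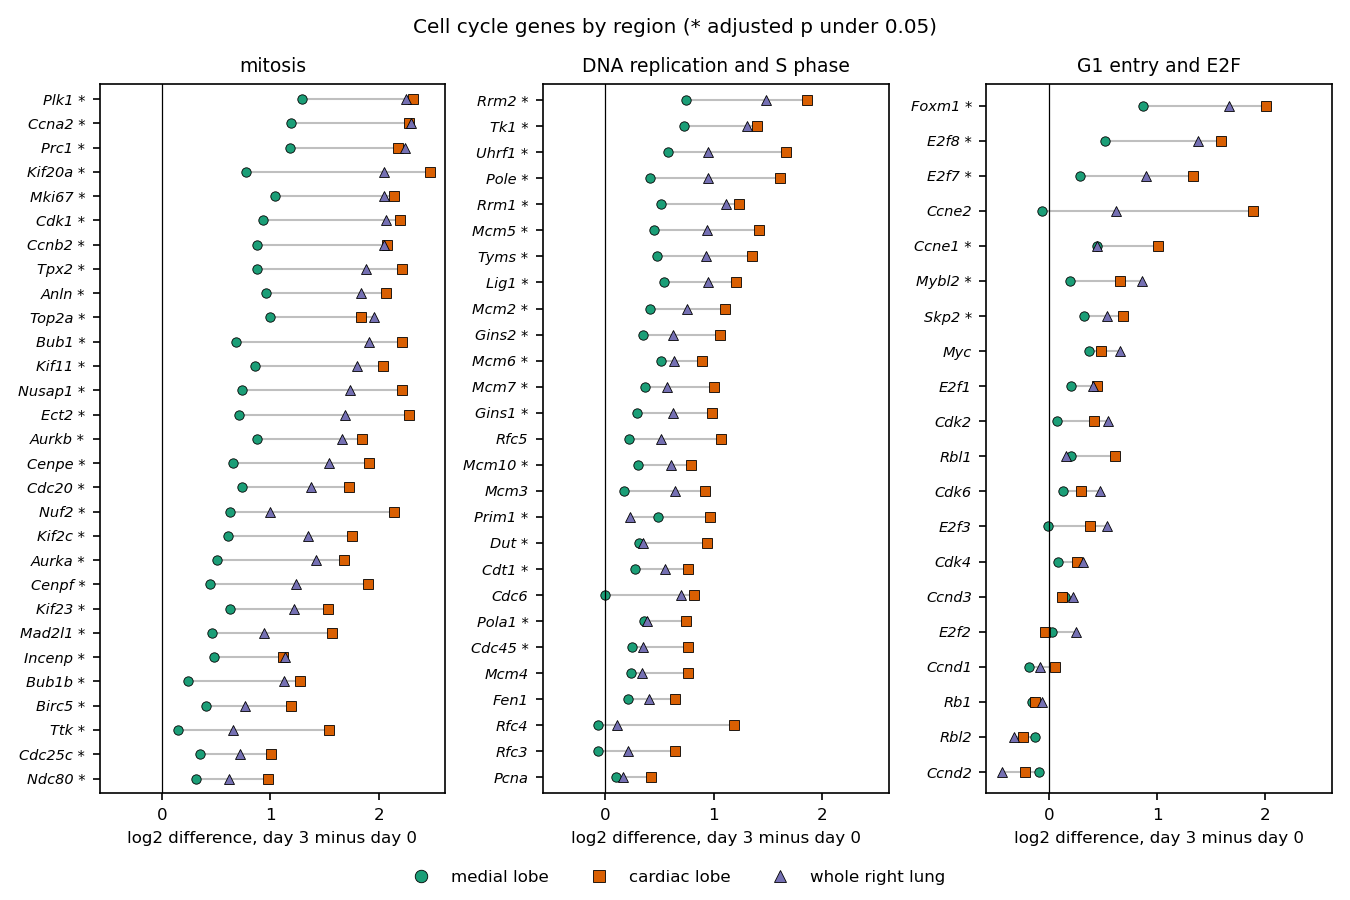
Difference between day 3 and day 0 (log2) of each mitosis, DNA replication and G1 or E2F gene in the medial lobe, cardiac lobe and whole lung; a star marks genes that passed. The mitosis genes sit above 0 in all 3 regions, with the cardiac lobe mostly highest and the medial lobe mostly lowest.

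Several groups of inflammatory genes rose in part. Of 18 acute phase genes 3 rose (16.7%) and none fell, namely Saa3, Serpina3n and Socs3. Serpina3n, a serine protease inhibitor of the acute phase, stood at 10.64, 11.69 and 11.45 at day 3, against 9.31, 10.15 and 9.67 at day 0 (2.93-fold, limma adjusted p = 0.00128). Socs3, the feedback inhibitor of IL6 signalling, stood at 8.43, 9.07 and 9.18 at day 3, against 7.74, 7.81 and 7.64 at day 0 (2.24-fold, limma adjusted p = 0.00268). Saa1, the liver-type serum amyloid, stood at 3.85, 3.90 and 4.0 at day 3, against 3.89, 3.79 and 3.86 at day 0, near the lower end of the array range and without a call. Of 14 monocyte chemokines and receptors 7 rose and 1 fell, with a median of 0.89. Ccl2, the main ligand of CCR2 on monocytes, stood at 7.17, 7.89 and 9.19 at day 3, against 5.73, 5.67 and 5.73 at day 0 (5.16-fold, limma adjusted p = 0.000838). Ccl7, a related ligand, rose 3.55-fold, and Ccl9, a myeloid chemokine, rose 3.18-fold. Ccr2 itself stood at 8.51, 9.36 and 9.45 at day 3, against 7.59, 8.18 and 7.62 at day 0 (2.48-fold, limma adjusted p = 0.00695, and 0.0556 without the day 3 whole lung). The member that fell was Cx3cl1, fractalkine, at -0.38 (limma adjusted p = 0.036), and it passed in no fit that left out 1 array other than the day 3 cardiac lobe. The count of rises was 3 without the day 3 whole lung.

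Of 18 neutrophil chemokines and neutrophil genes 3 rose (16.7%), namely Cxcl5, Cxcl2 and Cxcl1, which are ligands of CXCR2. The difference was positive in 17 of the 18, with a median of 0.74. Cxcl5 stood at 5.68, 5.60 and 6.47 at day 3, against 4.53, 4.49 and 4.64 at day 0 (2.57-fold, limma adjusted p = 0.000567). The count was 1 without the day 0 whole lung and 2 without the day 3 whole lung or the day 0 cardiac lobe, and 6 without the 2 arrays that stand apart. Of 19 genes of the IL1, IL6 and TNF families 5 rose and none fell. Osmr, the oncostatin M receptor, rose 1.61-fold, and Tnfrsf1a, the main TNF receptor, rose 1.45-fold. Il1b, an inflammasome product, stood at 8.38, 8.66 and 10.05 at day 3, against 7.84, 7.65 and 7.34 at day 0 (limma adjusted p = 0.0472). Its call was kept only without the day 3 medial lobe, with an adjusted p of up to 0.256 otherwise. The family count was 2 without the day 0 cardiac lobe, 3 without the day 3 cardiac lobe or the whole lung of either day, 8 without the day 3 medial lobe and 9 without the 2 arrays that stand apart.

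Of 13 monocyte and interstitial macrophage markers 7 rose (53.8%) and none fell, and the mean level of the list was 9.62 to 10.18 over the day 3 arrays, against 8.88 to 8.98 over the day 0 arrays. The subunits of C1q, which starts the classical complement pathway and marks tissue macrophages, rose together. C1qa stood at 9.02, 9.21 and 10.04 at day 3, against 7.42, 7.70 and 8.08 at day 0 (3.23-fold, limma adjusted p = 0.00168). C1qb and C1qc rose 3.18-fold and 3.26-fold. Trem2, a lipid-sensing receptor of macrophages, stood at 8.49, 8.47 and 9.17 at day 3, against 7.27, 7.14 and 7.02 at day 0 (2.97-fold, limma adjusted p = 0.00354). F13a1, the coagulation factor XIII subunit of monocytes and macrophages, rose 3.12-fold. Of 17 myeloid lectins and scavenger receptors 6 rose, and their list had medians of 0.14 in the medial lobe, 0.31 in the cardiac lobe and 1.32 in the whole lung. Clec4e, the receptor Mincle, stood at 8.17, 7.71 and 10.56 at day 3, against 6.12, 6.13 and 5.57 at day 0 (7.34-fold, limma adjusted p = 0.00694). Clec4d, its partner, rose 5.89-fold, and Msr1, scavenger receptor A, rose 4.30-fold. Tarm1, an activating receptor of myeloid cells outside the list, rose 4.05-fold. Of 14 genes of alternatively activated macrophages 2 rose, Arg1 and Cd163, and 7 rose without the 2 arrays that stand apart. Cd163, a haemoglobin scavenger receptor, rose 1.90-fold (limma adjusted p = 0.0249), a call that ended without the day 3 whole lung or any 1 day 0 array (adjusted p up to 0.166).

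Some complement genes rose, at several steps of the cascade, with 6 of 16 called higher (37.5%) and none lower. Cfb, the protease of the alternative pathway, stood at 11.23, 11.02 and 11.41 at day 3, against 9.27, 8.92 and 9.72 at day 0 (3.77-fold, limma adjusted p = 7.26e-06). C1s1, a protease of the C1 complex, stood at 10.34, 10.45 and 10.58 at day 3, against 8.88, 8.98 and 9.26 at day 0 (2.67-fold, limma adjusted p = 2.98e-06). Cfp, the properdin that stabilises the alternative convertase, rose 2.88-fold, and C3ar1, the receptor for C3a, rose 6.29-fold. Itgam, the CD11b subunit of complement receptor 3, stood at 9.33, 9.30 and 10.80 at day 3, against 7.09, 7.72 and 7.45 at day 0 (5.24-fold, limma adjusted p = 0.00305). These 5 calls held whichever 1 of the 6 arrays was left out. None of 10 complement promoters and none of 15 acute phase promoters in the table held GGANTTTCC, a form of the NF-kB motif. It was held by 1.58% of the 15614 genes. With so few promoters and so rare a motif, finding none was likely in any case. The search cannot show that such sites are absent.

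Of 12 alveolar macrophage markers measured, 4 fell (33.3%) and none rose, with a median of -0.40 and a mean level of 9.07 to 9.50 at day 3, against 9.55 to 9.77 at day 0. Krt79, a keratin found in alveolar macrophages, stood at 8.67, 8.69 and 7.66 at day 3, against 9.28, 9.19 and 8.89 at day 0 (0.582-fold, limma adjusted p = 0.00115). Marco, a scavenger receptor of alveolar macrophages, differed by 0.79 ± 0.45 without a call (limma adjusted p = 0.37). Siglecf, the sialic acid receptor of alveolar macrophages and eosinophils, stood at 8.59, 8.20 and 8.11 at day 3, against 8.98, 8.69 and 8.56 at day 0 (limma adjusted p = 0.0211). The count was 1 without the cardiac lobe or whole lung of day 3 or the whole lung of day 0, and 2 without the medial lobe of day 0. Siglecf itself missed the threshold without the cardiac lobe or whole lung of day 3, or the medial lobe or whole lung of day 0 (adjusted p up to 0.122). Of 15 eosinophil, mast cell and basophil genes 1 rose and 1 fell, the fall not without the day 3 cardiac lobe or the whole lung of either day. The rise was Hdc, the enzyme that makes histamine, at 9.90, 10.24 and 10.07 at day 3, against 9.05, 9.35 and 8.89 at day 0 (1.96-fold, limma adjusted p = 0.00618).

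Most B cell genes and part of the T cell and antigen presentation genes fell. Among 14 genes of B and plasma cells, 10 fell (71.4%) and none rose, with a median of -0.73 and a mean level of 7.38 to 7.71 at day 3, against 7.91 to 8.41 at day 0. Members that plasma cells express, picked here after their values were seen, were not among the falls, with differences of 0.30 in Jchain, the joining chain of IgM and IgA, 0.11 in Xbp1, a factor of secretory cells, and -0.22 in Mzb1, a chaperone of antibody assembly (limma adjusted p of 0.505 to 0.839). Ms4a1, the B cell antigen CD20, stood at 7.80, 8.18 and 8.20 at day 3, against 9.07, 9.15 and 9.28 at day 0 (0.464-fold, limma adjusted p = 0.0074, and 0.0518 without the day 0 whole lung). Cd79a, a signalling chain of the B cell receptor, stood at 8.43, 8.55 and 8.72 at day 3, against 9.27, 9.59 and 9.72 at day 0 (0.513-fold, limma adjusted p = 0.00791, and 0.0536 without the day 0 cardiac lobe). Vpreb3, a gene outside the list that associates with immature B cell receptors, fell to 0.5-fold and passed whichever 1 of the 6 arrays was left out. The B cell count was 1 without the day 0 whole lung, 4 without the day 0 cardiac lobe, 5 or 6 without 1 of the day 3 arrays and 10 without the day 0 medial lobe.

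Of 18 T and NK cell genes 8 fell (44.4%) and none rose, with a median of -0.64 and a mean level of 6.52 to 6.76 at day 3, against 7.10 to 7.46 at day 0. Cd3g, a chain of the T cell receptor complex, stood at 6.43, 7.03 and 6.37 at day 3, against 7.59, 8.33 and 7.30 at day 0 (0.456-fold, limma adjusted p = 0.000987). Ccr7, the receptor that guides lymphocytes and dendritic cells to lymphoid tissue, stood at 7.92, 8.08 and 8.30 at day 3, against 8.90, 9.22 and 9.32 at day 0 (0.483-fold, limma adjusted p = 0.00339). Gimap3, a GTPase of T cell survival outside the list, fell to 0.505-fold. The T and NK count was 3 without the day 3 whole lung or the day 0 cardiac lobe and 5 without the cardiac lobe of day 3 or the medial lobe or whole lung of day 0. Cxcl9, an interferon-induced chemokine that draws T cells, stood at 6.28, 7.47 and 6.17 at day 3, against 8.01, 8.37 and 7.55 at day 0 (0.396-fold, limma adjusted p = 0.00859, and 0.0592 without the day 3 whole lung).

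Of 15 genes of dendritic cells and MHC class II 6 fell (40%) and none rose. H2-Oa and H2-Ob, the chains of the peptide-loading modulator H2-O of B cells and dendritic cells, were among them. H2-Oa stood at 6.68, 7.06 and 6.74 at day 3, against 7.54, 7.85 and 7.83 at day 0 (0.530-fold, limma adjusted p = 0.000858), and H2-Ob fell to 0.514-fold. H2-DMa, a chain of the peptide exchange catalyst, stood at 9.98, 10.20 and 9.80 at day 3, against 10.41, 10.57 and 10.27 at day 0 (0.744-fold, limma adjusted p = 0.00194). H2-Aa, a chain of the classical class II molecule, was 11.78, 11.80 and 11.53 at day 3 and 11.90, 12.15 and 11.90 at day 0, with no call. The class II count was 3 without the day 3 cardiac lobe or the day 0 whole lung, 4 without the day 3 medial lobe or the day 0 cardiac lobe, and 11 without the 2 arrays that stand apart. Of 17 interferon response genes 2 rose and 4 fell, and the list median of 0.04 turned negative with arrays centred over all probe sets. Oasl2, an oligoadenylate synthetase-like gene, rose 1.59-fold, whereas Ifi208, a gene outside the list of the interferon-inducible Ifi200 family with close relatives, fell to 0.397-fold. The 4 falls, Cxcl9, Usp18, Ifit2 and Ifit3, became 1 without any 1 of the 6 arrays, and the rises became 1 without the day 3 whole lung or the cardiac lobe or whole lung of day 0.

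Part of the extracellular matrix genes rose. Of 23 fibrillar and elastic matrix genes 8 rose (34.8%) and none fell, with a median of 0.64 and 15 rises without the 2 arrays that stand apart. Col1a1, a chain of type I collagen, stood at 10.29, 10.83 and 10.88 at day 3, against 8.06, 8.75 and 8.84 at day 0 (4.34-fold, limma adjusted p = 0.00394). Col1a2, its partner chain, rose 3.82-fold, Col3a1, the collagen of distensible tissue, rose 3.67-fold, and Col5a2, which starts fibril assembly, rose 2.53-fold. These 4 genes passed whichever 1 of the 6 arrays was left out.

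Of 17 genes that process and cross-link collagen 11 rose (64.7%) and none fell. Lox, the lysyl oxidase that cross-links collagen and elastin, stood at 9.28, 9.96 and 9.95 at day 3, against 7.83, 8.05 and 8.15 at day 0 (3.31-fold, limma adjusted p = 0.000513). Loxl1, a relative needed for elastic fibres, stood at 9.44, 9.86 and 9.71 at day 3, against 8.24, 8.54 and 8.79 at day 0 (2.21-fold, limma adjusted p = 2.3e-05). Serpinh1, the collagen chaperone HSP47, rose 1.83-fold, Crtap, of the prolyl 3-hydroxylation complex, rose 1.75-fold, and Bmp1, which removes the procollagen C-propeptide, rose 1.74-fold. The count was 7 without the day 3 cardiac lobe.

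Of 21 matricellular proteins and proteoglycans 7 rose (33.3%) and none fell, led by Prg4, and 12 rose without the 2 arrays that stand apart. Vcan, the large provisional matrix proteoglycan versican, stood at 8.10, 8.84 and 8.85 at day 3, against 5.97, 6.12 and 6.14 at day 0 (5.75-fold, limma adjusted p = 7.95e-05). Tnc, the tenascin of injured and developing tissue, stood at 6.94, 8.44 and 7.23 at day 3, against 5.48, 5.88 and 6.15 at day 0 (3.25-fold, limma adjusted p = 0.00335). Fn1, fibronectin, stood at 12.23, 12.20 and 12.92 at day 3, against 10.72, 10.78 and 10.67 at day 0 (3.31-fold, limma adjusted p = 0.000214). Fndc1, a fibronectin domain protein outside the list, rose 4.17-fold, and Has1, a hyaluronan synthase, rose 2.90-fold. In the basement membrane list 1 of 19 rose and 1 fell, with a median of 0.02 that turned negative with centring over all probe sets. Neither call was made without the cardiac lobe of either day or the day 3 whole lung, and without the day 0 whole lung 2 rose and none fell, while 2 fell without the day 3 medial lobe.

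Some proteases of the matrix and some protease inhibitors rose. Of 20 matrix proteases 6 rose (30%) and none fell, becoming 3 without the cardiac lobe of either day, the day 3 whole lung or the day 0 medial lobe. Mmp14, the membrane metalloproteinase that activates MMP2, stood at 9.39, 9.86 and 9.83 at day 3, against 8.32, 8.56 and 8.13 at day 0 (2.56-fold, limma adjusted p = 0.00085). Adam12, a metalloprotease of activated mesenchyme, rose 2.45-fold, and Adamts4, an aggrecanase, rose 1.89-fold. Of 21 protease inhibitors and plasminogen system genes 7 rose and 1 fell. Slpi, a secreted inhibitor of neutrophil elastase, stood at 9.88, 10.15 and 10.67 at day 3, against 8.81, 8.80 and 9.30 at day 0 (2.40-fold, limma adjusted p = 7.26e-06). Tfpi2, a Kunitz inhibitor of plasmin, rose 1.74-fold. The count of rises was 4 without the whole lung of either day, and the fall, F3 or tissue factor, passed in no fit that left out 1 array other than the day 0 medial lobe. Of 22 integrins and adhesion genes 5 rose, becoming 1 without the medial or cardiac lobe of day 0, 2 without the cardiac lobe or whole lung of day 3 and 3 without the day 0 whole lung. Itgb8, the partner of integrin alpha v that activates latent TGF-beta, stood at 6.54, 7.79 and 7.48 at day 3, against 5.51, 5.85 and 5.47 at day 0 (3.16-fold, limma adjusted p = 1.6e-05).

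Growth factor families gave calls in both directions, to be set against 3.97% higher and 2.73% lower over all genes. Of 17 genes of EGF receptor and HGF signalling 2 rose (11.8%) and 2 fell (11.8%), and the median was -0.11. Egfr, the EGF receptor, stood at 8.80, 8.81 and 8.84 at day 3, against 8.24, 8.16 and 8.01 at day 0 (1.60-fold, limma adjusted p = 0.00152). Mst1r, the receptor RON related to the HGF receptor, rose 1.79-fold. Erbb3, a receptor for neuregulins, stood at 9.05, 9.01 and 8.50 at day 3, against 9.68, 9.54 and 9.21 at day 0 (0.649-fold, limma adjusted p = 0.00667), and it was the fall that remained where the count became 1, which was without any 1 array other than the day 0 cardiac lobe. In the IGF pathway 2 of 17 rose (11.8%) and 1 fell (5.88%), with a median of 0.01 that turned negative with centring over all probe sets. Igf1, the main growth hormone effector, which mesenchymal cells and macrophages make in the lung, stood at 8.78, 9.49 and 9.35 at day 3, against 7.63, 7.92 and 7.93 at day 0 (2.60-fold, limma adjusted p = 3.62e-05), and was the 1 rise left without the cardiac lobe or whole lung of either day, where the fall was lost too. The imprinted growth genes gave 5 rises of 12 (41.7%) and no fall. Among the rises was Grb10, an adaptor that restrains insulin and IGF signalling, at 2.03-fold. The count was 3 without any 1 array other than the day 3 medial lobe. Igf2, the fetal growth factor, was 7.22, 7.24 and 7.16 at day 3 and 7.52, 7.57 and 7.47 at day 0, with an adjusted p of 0.149.

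Of 17 FGF ligands and receptors 6 fell (35.3%) and none rose, with medians of 0.06 in the medial lobe, -0.28 in the cardiac lobe and -0.26 in the whole lung. Fgfr3, an FGF receptor of developing alveoli, stood at 9.14, 8.75 and 8.49 at day 3, against 9.37, 9.38 and 9.18 at day 0 (0.698-fold, limma adjusted p = 0.00309). The count was 1 without the day 3 cardiac lobe or the day 0 whole lung and 2 without the day 3 whole lung or the day 0 cardiac lobe. Of 20 VEGF and angiopoietin genes 3 fell (15%) and 1 rose (5%, near the 3.97% over all genes). Angpt2, the destabilising ligand of TIE2, stood at 6.28, 6.58 and 5.87 at day 3, against 6.77, 7.23 and 6.76 at day 0 (0.627-fold, limma adjusted p = 0.00547). Esm1, endocan of angiogenic endothelium, stood at 6.42, 6.35 and 5.85 at day 3, against 6.91, 7.52 and 6.78 at day 0 (0.550-fold, limma adjusted p = 0.00669). Vegfa, made by alveolar epithelium, stood at 11.57, 11.15 and 10.75 at day 3, against 11.70, 11.72 and 11.32 at day 0 (0.746-fold, limma adjusted p = 0.0286). The day 3 medial lobe exceeded the day 0 whole lung, and Vegfa missed the threshold without the cardiac lobe or whole lung of either day (adjusted p up to 0.183). The count of falls was 2 and that of rises 0 without any 1 of those 4 arrays, and 8 genes fell without the day 0 medial lobe.

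Of 29 TGF-beta and BMP genes 4 rose (13.8%, against 3.97% over all genes) and none fell, with a median of -0.03. Bmp7, a ligand of development and repair, stood at 7.48, 7.90 and 7.69 at day 3, against 6.61, 6.58 and 6.41 at day 0 (2.23-fold, limma adjusted p = 0.00122). Fstl1, a secreted antagonist of BMP signalling in the lung, stood at 10.69, 11.46 and 10.92 at day 3, against 9.64, 9.75 and 9.93 at day 0 (2.39-fold, limma adjusted p = 0.000225). Tgfb1, the main TGF-beta of the lung, was 9.86, 9.95 and 10.15 at day 3 and 9.62, 9.92 and 9.51 at day 0, with no call. The TGF-beta and BMP count was 2 without the cardiac lobe of either day or the day 0 whole lung. Of 27 WNT pathway genes 5 rose (18.5%) and 2 fell (7.41%). With arrays centred over all probe sets 2 rose and 3 fell, and 1 fell without the day 3 cardiac lobe. Sfrp2, a secreted WNT modulator, rose 1.61-fold, and Wnt2b, a ligand of early lung specification, stood at 6.64, 6.66 and 6.77 at day 3, against 7.17, 7.57 and 7.91 at day 0 (0.550-fold, limma adjusted p = 0.00366). The count of WNT rises was 2 without the cardiac lobe or whole lung of either day and 3 without the day 0 medial lobe. Of 20 YAP and TAZ targets 3 fell (15%, against 2.73% over all genes) and none rose. The falls included Amotl2, a scaffold that restrains YAP, at 0.698-fold. The count was 1 without any 1 array other than the day 0 medial lobe. None of 7 PDGF pathway genes passed in limma, with 1 higher at an unadjusted p under 0.05.

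Most mesothelial genes rose. Of 13 measured 8 rose (61.5%) and none fell, with a median of 0.62, and the mean level of the list was 10.36 to 10.41 at day 3, against 9.30 to 9.80 at day 0. Wt1, a transcription factor of mesothelium, stood at 8.99, 9.47 and 9.62 at day 3, against 7.77, 7.76 and 8.47 at day 0 (2.57-fold, limma adjusted p = 9.95e-05). Aldh1a2, which makes retinoic acid, stood at 10.54, 10.53 and 10.71 at day 3, against 9.62, 9.60 and 10.14 at day 0 (1.75-fold, limma adjusted p = 0.000341). Msln, mesothelin, stood at 11.41, 11.10 and 11.20 at day 3, against 10.69, 10.39 and 10.99 at day 0 (limma adjusted p = 0.0342). Msln missed the threshold without the medial or cardiac lobe of either day (adjusted p up to 0.147), and the list count was 4 without the cardiac lobe of either day. Prg4 also belongs to this list, and the part of mesothelial cells in its rise was not tested. Of 19 retinoid metabolism genes 4 rose and 1 fell. Rdh10, which oxidises retinol, rose 1.40-fold, and Lrat, which stores it as esters, stood at 8.04, 7.60 and 7.69 at day 3, against 8.61, 8.87 and 9.97 at day 0 (0.386-fold, limma adjusted p = 0.0187). Lrat missed the threshold without the day 3 cardiac lobe, the day 3 whole lung or the day 0 whole lung (adjusted p up to 0.0889), and the count of retinoid rises was 2 without the day 3 whole lung or the cardiac lobe or whole lung of day 0.

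Few alveolar epithelial markers passed. Of 15 type II genes 2 fell and none rose, with medians of -0.02 in the medial lobe, -0.21 in the cardiac lobe and -0.53 in the whole lung. Of 13 type I genes 3 fell and none rose, with medians of -0.05, -0.33 and -0.64 in the same regions. The difference was negative in all 15 type II genes and in 12 of 13 type I genes. At an unadjusted p under 0.05 in limma, 9 type II and 8 type I genes were lower and none higher. Ager, the receptor RAGE of type I cells, stood at 12.50, 12.20 and 11.73 at day 3, against 12.54, 12.50 and 12.37 at day 0, with an adjusted p of 0.0715. Nkx2-1, the transcription factor of lung epithelium, stood at 9.55, 9.45 and 9.02 at day 3, against 9.80, 9.81 and 9.52 at day 0 (limma adjusted p = 0.0174). Its groups overlapped, and it missed the threshold without the day 3 whole lung or the cardiac lobe or whole lung of day 0 (adjusted p up to 0.121). No type I or type II gene passed without the day 3 whole lung or the cardiac lobe or whole lung of day 0, and 1 of each without the day 3 cardiac lobe. Without the 2 arrays that stand apart, 4 type II and 9 type I genes fell. Of 11 genes tied to injured alveolar epithelium 2 rose and 1 fell. Sprr1a, a cornified envelope precursor, stood at 7.48, 9.36 and 8.59 at day 3, against 6.67, 6.88 and 6.53 at day 0 (3.44-fold, limma adjusted p = 0.00669), Clu, a secreted chaperone, rose 1.45-fold, and Cldn4, a tight junction claudin, fell to 0.723-fold.

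In the airways, 4 of 17 club, mucous and detoxifying genes fell and none rose, and no fall passed without the cardiac lobe of day 3 or the whole lung of either day, 1 passed without the day 0 cardiac lobe, 2 without the medial lobe of either day and 8 without the 2 arrays that stand apart. Of 16 motile cilium genes 2 rose and 3 fell. The rises were Mcidas and Ccno, which start the programme of multiciliated cells, and the falls included axonemal genes. Mcidas stood at 6.65, 7.72 and 7.67 at day 3, against 6.36, 6.21 and 6.31 at day 0 (2.07-fold, limma adjusted p = 0.00255). Dnah11, an axonemal dynein heavy chain, stood at 6.61, 6.64 and 6.87 at day 3, against 7.57, 7.13 and 7.36 at day 0 (0.640-fold, limma adjusted p = 0.00746). The call of Ccno ended without the cardiac lobe or whole lung of either day (adjusted p up to 0.0649), and the falls were 1 without the day 0 medial lobe and 8 without the 2 arrays that stand apart. Foxj1, the master factor of motile cilia, was 8.38, 8.54 and 8.75 at day 3 and 8.94, 8.45 and 8.77 at day 0, with no call.

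None of 22 endothelial identity genes passed in limma, with 6 lower at an unadjusted p under 0.05, and the list had medians of 0.11 in the medial lobe, -0.26 in the cardiac lobe and -0.56 in the whole lung. Cdh5, the cadherin of endothelial junctions, stood at 11.79, 11.75 and 10.98 at day 3, against 11.58, 11.98 and 11.61 at day 0. Leaving out the day 0 medial lobe gave 3 falls, and leaving out the 2 arrays that stand apart gave 4. Lyve1, a hyaluronan receptor of lymphatic endothelium and some macrophages, stood at 11.12, 11.25 and 10.43 at day 3, against 11.49, 11.93 and 11.34 at day 0 (0.637-fold, limma adjusted p = 0.00394) and was the only 1 of 7 lymphatic genes to pass. None of 17 smooth muscle and pericyte genes passed, with 1 higher at an unadjusted p under 0.05, and of 17 fibroblast genes 1 fell, which was Inmt, a methyltransferase abundant in lung, at 0.659-fold. Of 21 mesenchymal transcription factors 3 rose and none fell. Osr1, a factor of early lung and body wall mesenchyme, stood at 9.57, 10.09 and 10.21 at day 3, against 7.97, 8.27 and 8.27 at day 0 (3.46-fold, limma adjusted p = 3.92e-05). Prrx1, a factor of limb and fibroblast mesenchyme, stood at 7.39, 7.90 and 8.04 at day 3, against 6.56, 6.88 and 6.92 at day 0 (1.99-fold, limma adjusted p = 0.00241). None of 12 cardiac muscle genes passed, with 6 lower at an unadjusted p under 0.05 and a mean level of 7.10 to 7.75 at day 3, against 7.76 to 8.19 at day 0. In fat, 2 of 11 adipocyte genes fell, with mean levels of 7.31 to 7.88 at day 3, against 7.59 to 8.81 at day 0. No adipocyte gene passed without the cardiac lobe or whole lung of day 3 or the whole lung of day 0, and 1 passed without the medial or cardiac lobe of day 0. The part of heart and fat tissue in other falls was not tested.

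**Figure D3:**
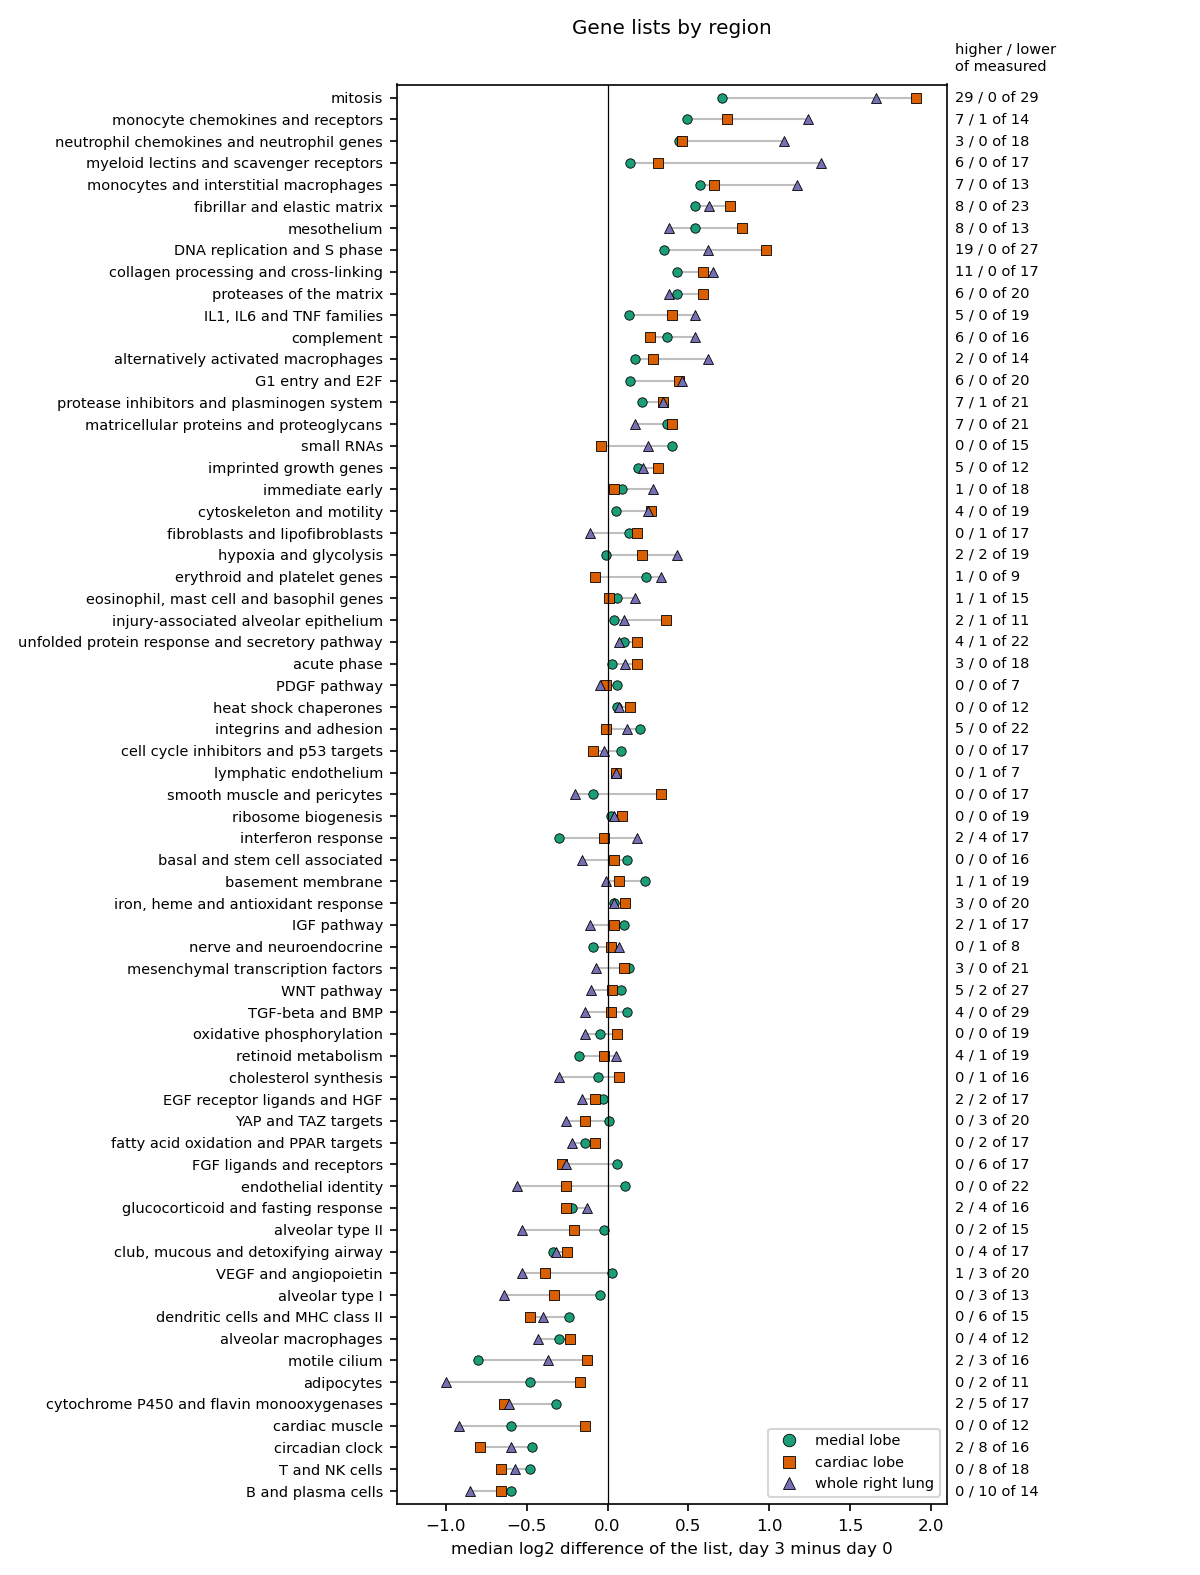
Median difference between day 3 and day 0 (log2) of each of the 65 gene lists in the medial lobe, cardiac lobe and whole lung, with the counts of members that rose and fell. The mitosis list lies furthest right, the B cell, T cell and clock lists lie left of 0 in all 3 regions, and the endothelial and alveolar lists differ by region.

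Genes of the circadian clock were called in both directions. Of 16 measured 8 fell (50%) and 2 rose (12.5%), with a median of -0.62. The promoters of Ciart, at chr3:95882179-95882478 on the minus strand, and Tef, at chr15:81802423-81802722 on the plus strand, are shown with CACGTG, the E-box bound by CLOCK and BMAL1, in capitals (RefSeq, GRCm38.p6, the same window).
Ciart: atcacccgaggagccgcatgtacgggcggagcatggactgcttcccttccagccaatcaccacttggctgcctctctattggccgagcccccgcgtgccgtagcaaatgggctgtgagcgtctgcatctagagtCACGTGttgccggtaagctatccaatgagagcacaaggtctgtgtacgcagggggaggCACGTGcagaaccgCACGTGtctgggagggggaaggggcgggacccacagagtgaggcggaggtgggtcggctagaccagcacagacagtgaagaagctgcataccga
Tef: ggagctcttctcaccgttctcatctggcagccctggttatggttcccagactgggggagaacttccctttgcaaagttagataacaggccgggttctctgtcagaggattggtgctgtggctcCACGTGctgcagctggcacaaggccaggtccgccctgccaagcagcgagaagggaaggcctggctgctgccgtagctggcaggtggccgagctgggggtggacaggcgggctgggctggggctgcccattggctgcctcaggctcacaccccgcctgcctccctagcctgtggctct
CACGTG reads the same on both strands and was found in 5 of 14 clock promoters (35.7%) and in 9.5% of the 15614 genes. Per2, a repressor of CLOCK and BMAL1, stood at 8.18, 7.80 and 8.08 at day 3, against 9.11, 8.99 and 8.86 at day 0 (0.512-fold, limma adjusted p = 0.00436). Bhlhe41, the repressor DEC2, stood at 8.16, 7.85 and 7.69 at day 3, against 8.91, 8.81 and 8.51 at day 0 (0.558-fold, limma adjusted p = 0.00412). Ciart, a repressor whose promoter is shown, stood at 8.23, 7.76 and 7.86 at day 3, against 9.10, 9.22 and 8.89 at day 0 (0.460-fold, limma adjusted p = 0.0145). Ciart missed the threshold without the cardiac lobe or whole lung of either day (adjusted p up to 0.0777). Arntl, the gene of BMAL1, stood at 6.50, 6.83 and 6.64 at day 3, against 6.13, 6.21 and 6.11 at day 0 (1.42-fold, limma adjusted p = 0.0355). Its call was kept only without the day 3 medial lobe, with an adjusted p of up to 0.162 otherwise. The count of clock falls was 4 without the day 3 cardiac lobe, the day 3 whole lung or the day 0 cardiac lobe, and 5 without the medial lobe or whole lung of day 0, and no rise passed without the day 3 whole lung or the cardiac lobe or whole lung of day 0, and 1 without the day 3 cardiac lobe or the day 0 medial lobe. The labels give no time of day at which tissue was taken, so hour of sampling and day after surgery cannot be told apart.

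Of 16 glucocorticoid and fasting genes 4 fell and 2 rose. Tsc22d3, the glucocorticoid-induced leucine zipper, stood at 9.09, 8.85 and 9.07 at day 3, against 9.87, 9.98 and 10.01 at day 0 (0.518-fold, limma adjusted p = 0.00121). Fam107a, an actin-bundling stress gene outside the list, stood at 7.03, 6.78 and 6.79 at day 3, against 8.22, 8.28 and 7.39 at day 0 (0.468-fold, limma adjusted p = 0.000552). Sult1a1, a phenol sulfotransferase in the glucocorticoid list, stood at 8.03, 7.47 and 7.59 at day 3, against 8.82, 8.62 and 8.53 at day 0 (0.515-fold, limma adjusted p = 2.4e-05). No rise passed without the cardiac lobe or whole lung of either day, and the falls were 2 without the cardiac lobe of either day. Of 17 cytochrome P450 and flavin monooxygenase genes 5 fell and 2 rose. Cyp3a13, a steroid and drug oxidase, stood at 6.42, 6.11 and 5.97 at day 3, against 7.45, 7.01 and 7.18 at day 0 (0.485-fold, limma adjusted p = 0.00765). Cyp7b1, an oxysterol hydroxylase, rose 2.05-fold. The P450 falls were 1 without the day 0 whole lung, 2 without the cardiac lobe of either day, 3 without the day 3 whole lung and 10 without the 2 arrays that stand apart, and the rises were 1 without any 1 array other than the day 3 cardiac lobe.

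Stress and energy lists gave mixed counts, to be set against 3.97% higher and 2.73% lower over all genes. The share higher was 18.2% in the unfolded protein response list and 15% in the iron, heme and antioxidant list. In the hypoxia and glycolysis list 10.5% were higher and 10.5% lower. Among the lists that follow here, those with 1 call in all had shares of 5.56% to 12.5%. None of 12 heat shock chaperones passed in limma, with 2 higher at an unadjusted p under 0.05, and none of 19 oxidative phosphorylation genes passed by either measure. Hspa1a, an inducible chaperone with a near-identical copy, stood at 7.51, 7.71 and 8.07 at day 3, against 7.10, 7.27 and 7.54 at day 0 (limma adjusted p = 0.432). Of 19 hypoxia and glycolysis genes 2 rose and 2 fell. Egln3, the prolyl hydroxylase PHD3 induced by hypoxia-inducible factors, stood at 7.65, 8.16 and 8.92 at day 3, against 6.30, 6.43 and 6.98 at day 0 (3.19-fold, limma adjusted p = 0.00016). With single arrays left out the rises numbered 1 to 4, the most without the day 3 medial lobe, and the falls 0 to 2, with none left without the day 3 cardiac lobe and 1 without any 1 day 0 array. With centring over all probe sets 1 rose and 3 fell. Of 22 genes of the unfolded protein response and secretory pathway 4 rose and 1 fell, and no rise passed without the cardiac lobe of either day or the day 3 whole lung. The rises were also 1 without the medial lobe or whole lung of day 0 and with arrays centred over all probe sets, and the fall was lost without the cardiac lobe or whole lung of either day. In the iron, heme and antioxidant list 3 of 20 rose, none of them without the day 3 whole lung or the day 0 cardiac lobe and 1 without the day 0 whole lung. Hmox1, heme oxygenase 1, stood at 9.96, 9.94 and 10.73 at day 3, against 9.07, 8.81 and 8.96 at day 0 (2.40-fold, limma adjusted p = 0.0128, and up to 0.0862 without those arrays). Of 9 erythroid and platelet genes 1 rose, a call lost without the day 3 whole lung or the cardiac lobe or whole lung of day 0. Of 18 immediate early genes 1 rose, and not without the day 3 whole lung or the day 0 cardiac lobe. Of 8 nerve and neuroendocrine genes 1 fell, and not without the medial lobe of either day, the day 3 cardiac lobe or the day 0 whole lung. Of 16 cholesterol synthesis genes 1 fell, and not without any 1 of the 6 arrays. Of 17 fatty acid oxidation and PPAR genes 2 fell, with none left without the medial lobe or whole lung of either day, 1 without the day 3 cardiac lobe and 3 without the day 0 cardiac lobe. None of 16 basal and stem cell genes passed in limma, with 3 higher and 2 lower at an unadjusted p under 0.05. None of 15 listed small RNA genes passed by either measure. Snord42b, a small nucleolar RNA outside the list, fell, at 6.90, 6.30 and 6.85 at day 3, against 7.82, 7.65 and 7.60 at day 0. Its call ended without the cardiac lobe or whole lung of day 3, or the medial or cardiac lobe of day 0 (limma adjusted p up to 0.112). Of 19 genes of the cytoskeleton and motility 4 rose and none fell, becoming 2 without the day 3 whole lung or the day 0 cardiac lobe. Tubb6, a tubulin of remodelling cytoskeleton, rose 2.52-fold, and Lgals1, galectin-1, stood at 12.32, 12.55 and 12.53 at day 3, against 11.70, 11.71 and 11.85 at day 0 (1.64-fold, limma adjusted p = 0.000318).

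Day 3 was also set against day 56 after sham surgery, the other condition with the left lung in place. The sham arrays differ from day 3 in time after surgery as well as in the operation, and the 2 cannot be told apart. Against the sham arrays 1530 genes were called (7.67%), 890 of them higher (4.46%) and 640 lower (3.21%), and 2656 were called without the 2 arrays that stand apart. The same day 3 arrays enter both comparisons, so the values are given side by side. Mitosis genes gave 29 rises of 29 against sham with a median of 1.48, and 29 with 1.46 against day 0. Saa3 was 5.23 above sham and 5.30 above day 0, and Osr1 was 2.21 above sham and 1.79 above day 0. Col1a1 was 1.69 above sham and 2.12 above day 0. Other lists gave different values against the 2 baselines. Of the B cell genes none passed against sham in limma or at an unadjusted p under 0.05, with a median of -0.18, while 10 fell against day 0 with a median of -0.73. T and NK genes likewise gave no fall against sham, also at an unadjusted p under 0.05, with a median of -0.06, and 8 against day 0 with -0.64. Dendritic cell and class II genes gave no fall against sham (median -0.16), with 2 lower at an unadjusted p under 0.05, and 6 against day 0. Interferon response genes gave 3 rises and no fall against sham, and 2 rises and 4 falls against day 0. Motile cilium genes gave no fall against sham (median 0.02) and 3 against day 0 (median -0.43). Alveolar macrophage genes gave 1 fall against sham (median -0.14) and 4 against day 0 (median -0.4). Neutrophil chemokine and neutrophil genes gave 3 rises against each baseline, with medians of 0.09 against sham and 0.74 against day 0. Cxcl9 stood at 6.06, 6.26 and 6.39 in sham, against 6.28, 7.47 and 6.17 at day 3 and 8.01, 8.37 and 7.55 at day 0. Ms4a1 was -0.16 from sham (limma adjusted p = 0.861) and -1.11 from day 0. Clock genes gave 8 rises and 2 falls against sham with a median of 0.53, and 2 rises and 8 falls against day 0. Per2 was 0.79 above sham (limma adjusted p = 0.0134) and -0.97 from day 0, while Arntl was -1.59 from sham (limma adjusted p = 6.88e-06) and 0.51 above day 0. Spon2 was -0.07 from sham (limma adjusted p = 0.979), with a mean of 7.94 at day 3, 8.0 in sham and 5.88 at day 0. Endothelial identity gave 7 falls against sham and none against day 0, or 15 and 6 at an unadjusted p under 0.05. The difference between the 2 baselines was not tested gene by gene here.

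**Figure D4:**
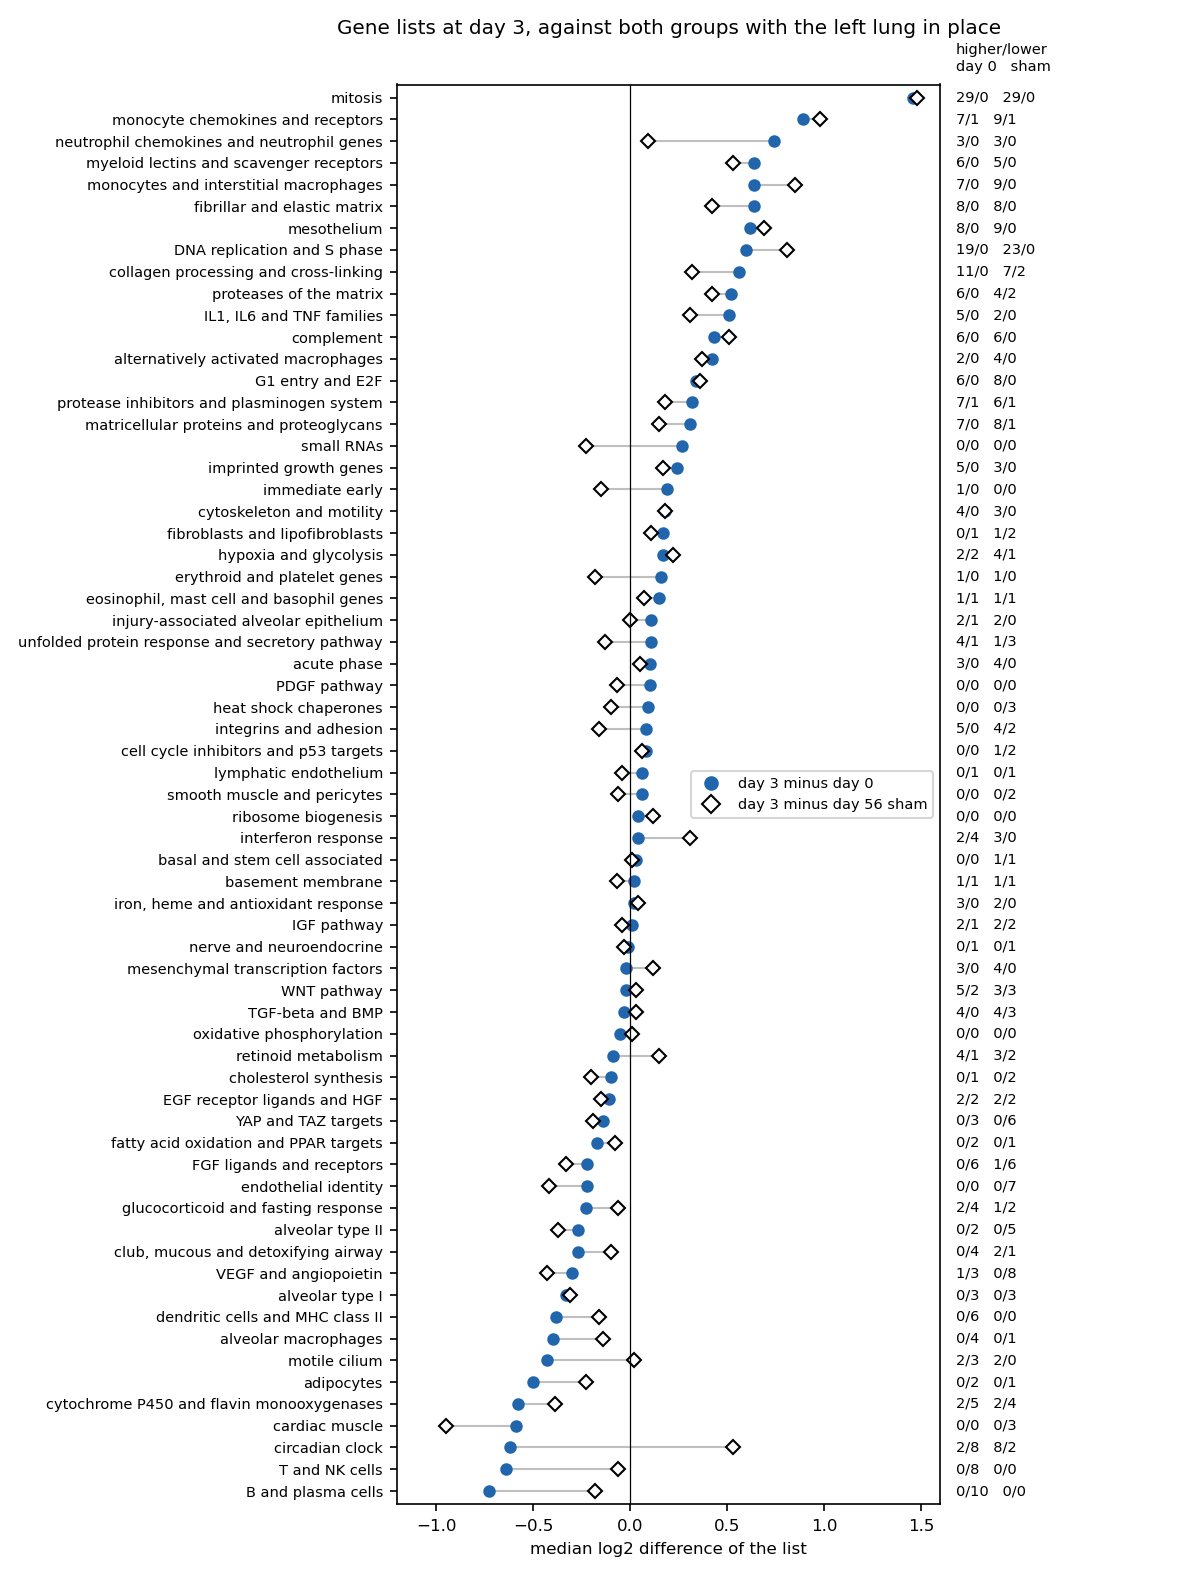
Median difference (log2) of each gene list at day 3 against day 0 and at day 3 against day 56 after sham surgery, with counts of members that rose and fell. The mitosis list has about the same median in both, at 1.46 and 1.48, while the clock list is at -0.62 against day 0 and 0.53 against sham.

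Against the later days after pneumonectomy, day 3 had the fewest called genes at day 7. The number of called genes was 13 between day 3 and day 7 (0.0652%), 724 between day 3 and day 14 (3.63%), 762 between day 3 and day 28 (3.82%) and 1399 between day 3 and day 56 (7.02%). Of the 13 genes, 9 were higher at day 3 (0.0451%), among them Osr1, Slpi and Egfr, and 4 were lower (0.0201%). Of the day 14 calls 486 were higher at day 3 (2.44%) and 238 lower (1.19%), of the day 28 calls 641 were higher (3.21%) and 121 lower (0.607%), and of the day 56 calls 1074 were higher (5.39%) and 325 lower (1.63%). The day 7 cardiac lobe and day 56 whole lung are the arrays that stand apart, and without them the counts were 65 for day 7, 1386 for day 14, 1566 for day 28 and 1769 for day 56. Osr1 averaged 8.17 at day 0, 9.96 at day 3, 8.52 at day 7, 8.26 at day 14, 8.59 at day 28 and 8.03 at day 56, and 7.75 in sham. Egfr averaged 8.14 at day 0, 8.82 at day 3, 8.13 at day 7 and 8.08 at day 56. Hspa1a was lower at day 3 than at day 7, by -1.78. Timp1, Col1a1, Plk1 and Tnc, called against day 0, did not pass between day 3 and day 7 (limma adjusted p of 0.362 to 0.997). Timp1 averaged 7.77 at day 0, 11.29 at day 3, 10.76 at day 7, 9.54 at day 14, 8.51 at day 28 and 8.53 at day 56. Col1a1 averaged 8.55 at day 0, 10.67 at day 3, 10.67 at day 7, 9.72 at day 14 and 9.02 at day 56. Plk1 averaged 7.10 at day 0, 9.05 at day 3, 8.48 at day 7, 7.28 at day 14 and 6.50 at day 56. Tnc averaged 5.84 at day 0, 7.54 at day 3, 8.24 at day 7 and 7.56 at day 14, so its highest mean came after day 3. The 5 called genes furthest from any later day were Saa3, Prg4, Arg1, Serpinb2 and Clec4e. Saa3 averaged 6.77 at day 0, 12.07 at day 3, 11.17 at day 7, 8.93 at day 14, 7.72 at day 28 and 7.55 at day 56. Ms4a1 averaged 9.17 at day 0, 8.06 at day 3, 7.25 at day 7, 7.63 at day 14, 8.80 at day 28 and 7.86 at day 56, and 8.22 in sham, so day 0 had its highest mean. Dbp, a clock output factor, averaged 10.24 at day 0, 9.48 at day 3, 9.45 at day 7, 8.14 at day 14, 10.12 at day 28 and 10.15 at day 56, and 7.71 in sham. Its fall at day 3 (limma adjusted p = 0.044) missed the threshold without any 1 of the 6 arrays, with an adjusted p of up to 0.185.

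**Figure D5:**
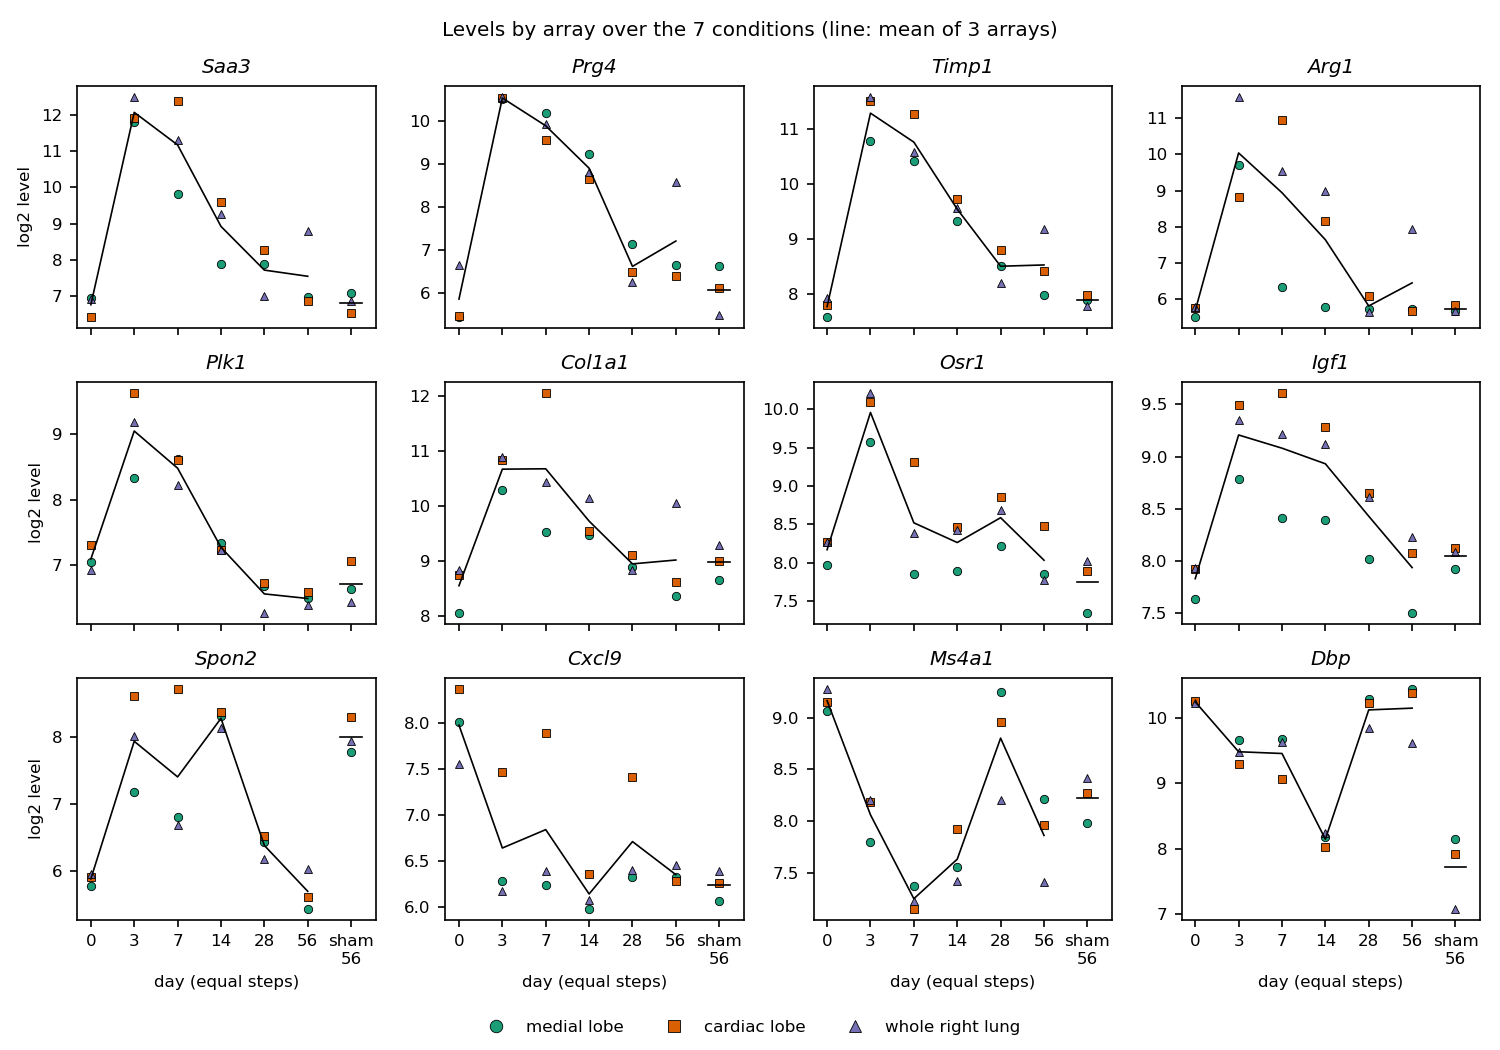
Log2 level of 12 genes over the 7 conditions (day 0, days 3 to 56 after pneumonectomy, day 56 after sham), with the 3 arrays as points and their mean as a line. The means of Saa3, Prg4, Timp1 and Arg1 peak at day 3, and the mean of Ms4a1 is highest at day 0. At day 7 the cardiac lobe lies far above the other regions in Col1a1, and the medial lobe lies far below them in Arg1. Osr1 is high at day 3, and at day 7 its medial lobe and whole lung are back near day 0 but its cardiac lobe is not. Spon2 is high in sham as well.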

How the data were processed

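Each of the 21 Affymetrix arrays held RNA of 1 right lung sample, labelled with biotin. The log2 levels were deposited by the authors after RMA, a background correction, normalization between arrays and summary over probes, per the submitters' processing notes. The sources used here give neither its version nor its settings. There are 35556 probe sets, with values from 2.98 to 14.06 and no detection calls. All arrays share 1 labelled hybridization date, so it gives no batch. The labels' protocols describe 3' amplification, but the annotated probes belong to a whole-transcript array, and this was not settled.

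By platform annotation 21789 probe sets have 1 symbol, 1621 have several and 12146 have none. RefSeq (GRCm38.p6) gene numbers matched 21698 of the single-symbol probe sets and gave current names. Of 19938 genes, 999 had more than 1 probe set, of which the one with the highest mean was used. One limma fit (version 3.58.1, R 4.3.3) covered the 21 arrays and had terms for condition and for region, with empirical Bayes moderation and 12 residual degrees of freedom. Replicate numbers stand for labelled regions, so region was the block that pairs the days. The threshold was an adjusted p of 0.05 (Benjamini-Hochberg, over all genes). No set test was run.

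The comparison, its members and the 65 gene lists were chosen with earlier results of these data known. Named genes were the 25 largest rises and 25 largest falls, up to 6 passing members of each list, the first 2 genes of each list, the 5 with the widest range across regions and the 5 furthest from a later day. The procedure was tested on simulated data. Alternatives were no region block, other handling of probe sets, dim genes left out, another prior, centring of arrays, fewer arrays, and each array left out in turn. Near-identical genes such as Cyp4a12b, Hspa1a and Ifi208 are uncertain as to the copy. The number of arrays limits the precision.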

Additional observations from a re-analysis of the deposited data

How the results depend on the processing

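Of 1336 genes called, 628 were called with no replicate block (476 higher and 152 lower), so the pairing by region raised the count by over 1.5 times, and all 628 were among the 1336. Called genes numbered 829 with genes under the median level left out (425 higher), 335 with the medial and cardiac lobes alone (227 higher and 108 lower) and 2827 without the day 7 cardiac lobe and day 56 whole lung (1281 higher and 1546 lower). The first tested fewer genes and the second used fewer arrays, and the cause of the third was not tested. With 1 of the 6 arrays left out, 664 to 1272 genes were called, of which 471 to 842 were higher and 191 to 430 lower. Mean probe sets, every probe set, another prior, centring on the gene median and the 6 arrays alone gave 1146 to 1395 genes, within 1.5 times of 1336. The fit of the 6 arrays alone shared 773 of the 1336 genes, and 72 of the 246 named genes that passed missed the threshold in it. Centring over all probe sets, an alternative chosen after seeing the data, gave 1421 genes, of which 42.6% were higher in place of 59.3%. It turned the sign of the medians of the ribosome biogenesis, interferon, basement membrane, IGF, basal and stem cell, and iron and heme lists. Of 246 named genes that passed, 120 passed whichever 1 of the 6 arrays was left out and 11 passed in none of those fits. No named difference reversed. Without detection calls, values near the lower end of the range may be background, and small differences there cannot be resolved.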
